A study of Mus musculus with 2 samples.

Results

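The replication-type histone genes were taken as every gene symbol in the feature lists of both libraries that starts with Hist1h, Hist2h, Hist3h or Hist4h, which gave 67 genes of 31017 symbols. They were 6 linker (H1), 18 H2A, 18 H2B, 12 H3 and 13 H4 genes, of which 54 lie in the Hist1 cluster on chromosome 13, 10 in Hist2 on chromosome 3, 2 in Hist3 on chromosome 11 and 1 in Hist4 on chromosome 6. The cells were splenic CD8 T cells of C57BL/6J wild-type mice, sorted as CD3e+CD8a+ from hosts aged 25 months. Donor cells carrying CD45.1 came from mice aged 3 months and had been transferred 1 month earlier into CD45.2 hosts, which were then 24 months old. The old recipient group was the host's own CD45.2+ cells and the young donor group the transferred CD45.1+ cells, so both had spent the last month in an aged host. Each group was 1 droplet 5' gene expression library, and the labels left it unstated whether 1 mouse or several gave the cells. With 1 library per group no difference was tested, group and library cannot be told apart, and every interval covers counting error only.

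Cells make most of their core histones while DNA is copied, when each new stretch of DNA is packed into nucleosomes of H2A, H2B, H3 and H4 and bound by H1. The messages of these clustered genes usually end in a stem-loop in place of a poly(A) tail, and Slbp, the stem-loop binding protein, holds them for processing, translation and decay. Replacement histones encoded outside the clusters, such as H2afz and H3f3b, are polyadenylated and made at all times. Resting T cells divide rarely, and a clustered histone gene read in them from poly(A) RNA is usually one that can also make a message with a tail.

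The stem-loop was searched as GGNNNT, any 4 bases and the reverse complement of the first 6, within 100 bases after the stop codon of annotated 3' UTRs of at least 40 bases (GENCODE M21, GRCm38). It was present in 45 of 51 members with such a 3' UTR (88.2%), against 56 of 20780 genes in all (0.269%). The same 16 letters, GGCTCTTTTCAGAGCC, stood in 25 members. Sites of 6 members are shown because they carry nearly the same letters in genes that range from almost restricted to dividing cells (Hist1h3b) to nearly level between dividing and other cells (Hist3h2ba), with the stem and loop in capitals.
Hist1h3b: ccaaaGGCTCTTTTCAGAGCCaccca
Hist1h2ap: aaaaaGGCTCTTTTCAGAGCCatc
Hist1h2ae: acaaaGGCTCTTTTCAGAGCCattca
Hist1h1c: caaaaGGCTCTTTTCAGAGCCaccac
Hist1h4c: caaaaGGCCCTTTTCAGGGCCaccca
Hist3h2ba: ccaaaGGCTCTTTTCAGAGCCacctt
These lie in the 3' UTRs at chr13:23752815-23752840 on the plus strand, chr13:21833026-21833049 (minus), chr13:23570663-23570688 (minus), chr13:23739507-23739532 (plus), chr13:23698084-23698109 (minus) and chr11:58949344-58949369 (plus). The annotated Hist1h2ap transcript ends 3 bases after its loop, while that of Hist1h1c runs 840 bases further and ends with a poly(A) signal.

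Promoters of 62 members were matched in RefSeq (GRCm38.p6), each spanning 250 bases before to 50 after the start. The TATA box letters TATAAA were found on either strand in 35 of them (56.5%), against 4473 of 32851 promoters in all (13.6%), and CCAAT in 53 (85.5%) against 37.4%. For members only the first listed start site was counted, while the promoters in all held every listed start site, those of members included. A match of one motif can share at most 1 base with a match of the other. The bases before the start are shown for an H1 gene read almost only in dividing cells and an H1 gene read in both dividing and other cells, with the TATA box letters and, on either strand, those of CCAAT in capitals, at chr13:21780626-21780875 (minus strand) and chr13:23738557-23738806 (plus strand).
Hist1h1b: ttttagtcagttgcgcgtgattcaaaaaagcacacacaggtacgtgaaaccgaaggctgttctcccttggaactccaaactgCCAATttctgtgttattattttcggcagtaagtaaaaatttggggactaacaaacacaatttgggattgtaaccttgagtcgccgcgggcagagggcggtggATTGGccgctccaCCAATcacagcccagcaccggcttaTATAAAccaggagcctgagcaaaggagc
Hist1h1c: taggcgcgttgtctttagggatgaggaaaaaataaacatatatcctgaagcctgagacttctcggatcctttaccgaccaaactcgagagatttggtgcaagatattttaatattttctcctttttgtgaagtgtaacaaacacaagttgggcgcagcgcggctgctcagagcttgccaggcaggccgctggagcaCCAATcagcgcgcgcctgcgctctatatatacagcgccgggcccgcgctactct
Both hold CCAAT, and the exact TATA box letters are in the first only. Among members with at least 50 UMIs and a promoter, the 27 with TATAAA had a median of 38.1% of their UMIs in dividing cells and the 18 without had 20.8%, with overlapping ranges of 6.77% to 96.1% and 2.70% to 99.4%.

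After filtering, 5366 recipient cells with 38577784 UMIs and 7489 donor cells with 59124052 UMIs were kept, with medians of 7021 and 7871 UMIs per cell. Markers of CD8 T cells summed to 5772 and 5282 CPM (UMIs of a gene for every 1000000 UMIs of the same cells) in the recipient and donor libraries. B cell markers summed to 184 and 163 CPM, nearly all Ighm (157 and 136 CPM), with Pax5 at 0 UMIs in both. Both libraries shared 105 barcodes, of which 61 and 65 were kept, and the results without them are part of the other settings tried.

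Members held 38346 UMIs over both libraries, at 483 CPM of recipient and 333 CPM of donor RNA. The 3 genes Hist1h1t, Hist1h2aa and Hist1h2ba had 0 UMIs, which allows up to 3 per library, and 17 members had under 50. Hist1h2ap, Hist1h1e and Hist1h1c held 53.3% of member UMIs, and the 25 with the most UMIs held 89.4%, the least of them 326 UMIs. A 5' UMI counts 1 molecule whatever its length, so CPM does not scale with transcript length. Messages without a poly(A) tail may be captured less well, so CPM need not rank members by their molecules, which was not tested. Copies share sequence as well: in 27 members over 50% of all 90-base windows also occur in another gene. Hist1h2ap shares 92.4% of its windows, most with Hist1h2ao, so their UMIs may be split between copies. Hist1h1e overlaps Hist1h2be on the same strand, and Hist3h2a overlaps Trim17.

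Cells with at least 1 UMI of Mki67 or Top2a, which mark dividing cells, were called cycling, and all others noncycling. Histone RNA was far higher in the cycling cells. Summed over members it was 3659 CPM (95% exact Poisson interval 3584 to 3734) in 300 recipient cycling cells and 262 CPM (257 to 268) in 5066 noncycling cells, a log2 ratio of 3.80 (3.76 to 3.84). In the donor it was 2153 CPM (2104 to 2203) in 374 cycling cells and 221 CPM (217 to 225) in 7115 noncycling cells, a log2 ratio of 3.28 (3.24 to 3.32). Without Hist1h2ap, which alone gave 64.6% and 58.6% of the histone UMIs of cycling cells, the log2 ratios were 2.57 and 2.23. The cycling gate was also widened to cells with any of 14 cell cycle genes, which held 1569 and 835 CPM. With Hist1h2ap included, the log2 ratios were then 2.59 and 1.93, below the 3.80 and 3.28 of the main gate.

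A member was counted as higher or lower when the CPM differed at least 1.5-fold and both sides held at least 50 UMIs together. Of 41 such members in the recipient, 36 were higher in cycling cells, where 14% of all genes were, and 1 was lower, where 5.98% were. In the donor 40 of 43 were higher, where 11.1% of all genes were, and 0 were lower, where 5.19% were. The members' median log2 ratio was 2.35 in the recipient and 1.86 in the donor, beside 0.17 and 0.10 over all genes. The lower member was Hist2h2be, an H2B gene, with 2 UMIs in cycling and 57 in noncycling recipient cells, and its interval (-4.07 to 0.93) held 0.

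**Figure D1:**
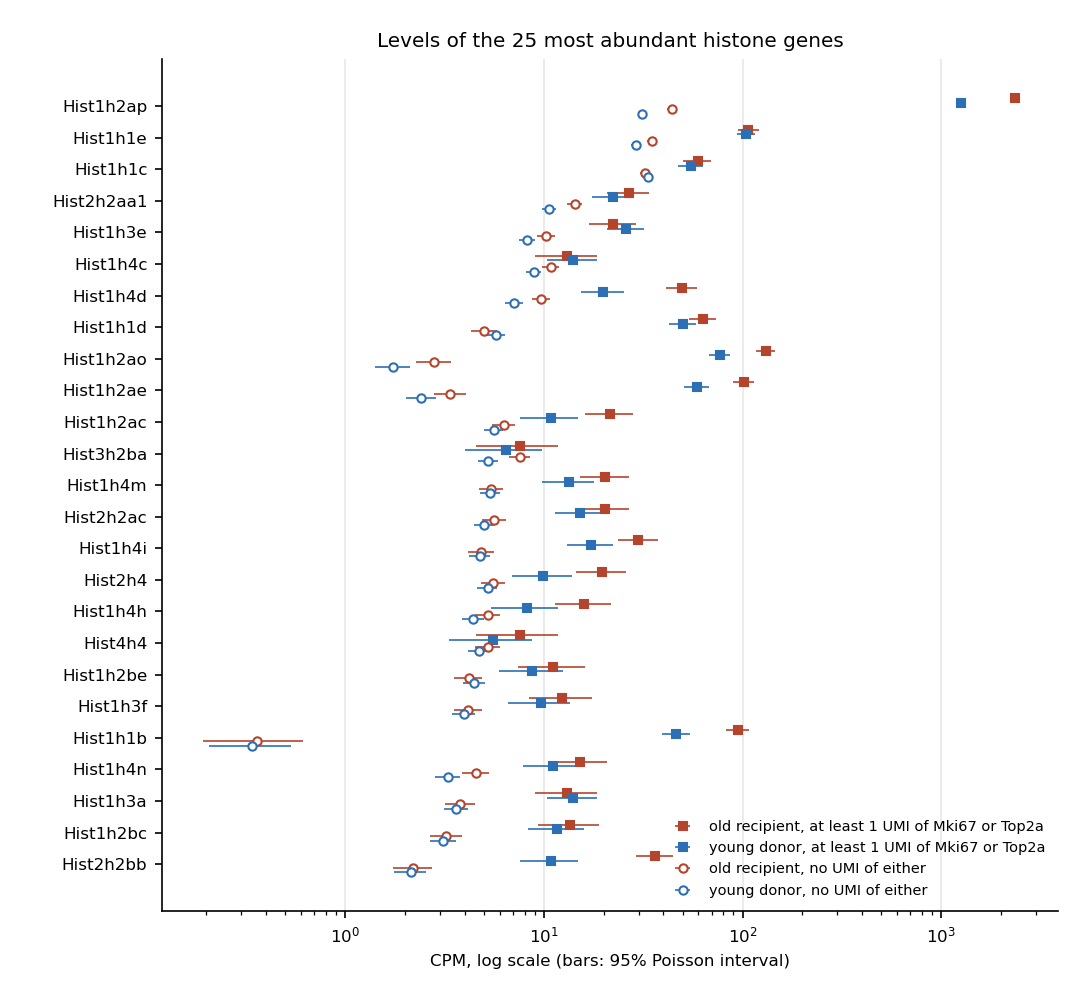
CPM on a log axis of the 25 members with the most UMIs, in cells with at least 1 UMI of Mki67 or Top2a (filled squares) and with none (open circles), for the old recipient (red) and young donor (blue) library, with 95% Poisson intervals. Hist1h2ap reaches 2363 and 1261 CPM in cycling cells, Hist1h1b lies near 0.35 CPM in noncycling cells, and Hist3h2ba and Hist4h4 differ little between the states.

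Members lay along a wide range between cells that divide and cells that do not. Hist1h1b (chromosome 13, 21779883 to 21780625), a linker histone gene, had 94.4 CPM in recipient cycling cells and 0.36 CPM in noncycling cells, and 46.5 and 0.34 CPM in the donor. Cycling cells, which held 6.51% and 5.79% of all UMIs, held 94.8% and 89.3% of its UMIs. The H2A gene Hist1h2af had 45.4 CPM in recipient cycling cells (114 UMIs) and 0 UMIs in noncycling ones. In the donor Hist1h2af had 46 UMIs in cycling and 1 in noncycling cells. Of the H3 gene Hist1h3b, cycling cells held 93.6% and 97.2% of UMIs, and of the H2A gene Hist1h2ab 90.4% and 89.2%. Over both libraries, 7 of the 50 members with at least 50 UMIs had over 75% of UMIs in cycling cells and 13 had over 50%. The shares of all genes past these cuts were not counted, so these counts only describe the members.

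Hist1h2ap (chromosome 13, 21833026 to 21833507), an H2A gene and the member with the most UMIs, had 2363 CPM (2303 to 2424) in cycling and 44.0 CPM (41.9 to 46.2) in noncycling recipient cells. In the donor it had 1261 CPM (1224 to 1299) and 31.3 CPM (29.8 to 32.8). It was thus the highest member in cycling cells of both libraries and, in the recipient, also in noncycling cells.

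At the other end, 15 members had under 15% of their UMIs in cycling cells, and the share of all genes under this cut was not counted. The cut lies above the 6.51% and 5.79% of all UMIs that cycling cells held, so it takes in members higher in them. Hist1h3e, for one, had 22.3 CPM in cycling and 10.2 CPM in noncycling recipient cells, and 26.0 and 8.26 CPM in the donor. Hist1h1c (chromosome 13, 23738808 to 23740367), a linker gene, had 59.3 and 54.9 CPM in cycling cells and 32.4 and 33.3 CPM in noncycling cells of the recipient and donor, with 11.3% and 9.22% of its UMIs in the former. Its level differed between the states by log2 0.87 (0.62 to 1.12) and 0.72 (0.50 to 0.94). Most cycling cells had 1 UMI of Mki67 and Top2a together, and in these Hist1h1c was at 32.1 and 28.2 CPM. In cycling cells with 2 or more such UMIs it was at 106 and 101 CPM. The linker gene Hist1h1e (chromosome 13, 23620629 to 23622558) lay between, with 107 and 104 CPM in cycling and 35.02 and 28.9 CPM in noncycling cells. In cycling cells with 1 such UMI Hist1h1e was at 43.4 and 37.0 CPM, and in those with 2 or more at 216 and 220 CPM. Hist3h2ba (chromosome 11, 58948920 to 58949533), an H2B gene of the Hist3 cluster, had 7.56 and 6.43 CPM in cycling and 7.57 and 5.24 CPM in noncycling cells. The lowest shares in cycling cells over both libraries were 2.70% for Hist3h2a, 4.97% for Hist2h2be and 6.77% for Hist3h2ba.

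Within the cycling gate most histone RNA came from few cells. Recipient cells with 1 UMI of Mki67 and Top2a together (227 cells) had 294 CPM of histone RNA and donor ones (278 cells) 249 CPM, near the noncycling levels of 262 and 221 CPM. Those with 2 or more UMIs, 73 recipient and 96 donor cells, had 9468 and 5424 CPM. In that set 24 recipient cells with 100 or more histone UMIs held 94.8% of the set's histone UMIs, and 26 donor cells held 86.7%. The highest cell had 605 histone UMIs among recipient and 390 among donor cells, while the median cell of the set had 8 and 11. These cells were also deeper, with a median of 11241 and 12252 UMIs against 7011 and 7860 in noncycling cells.

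**Figure D2:**
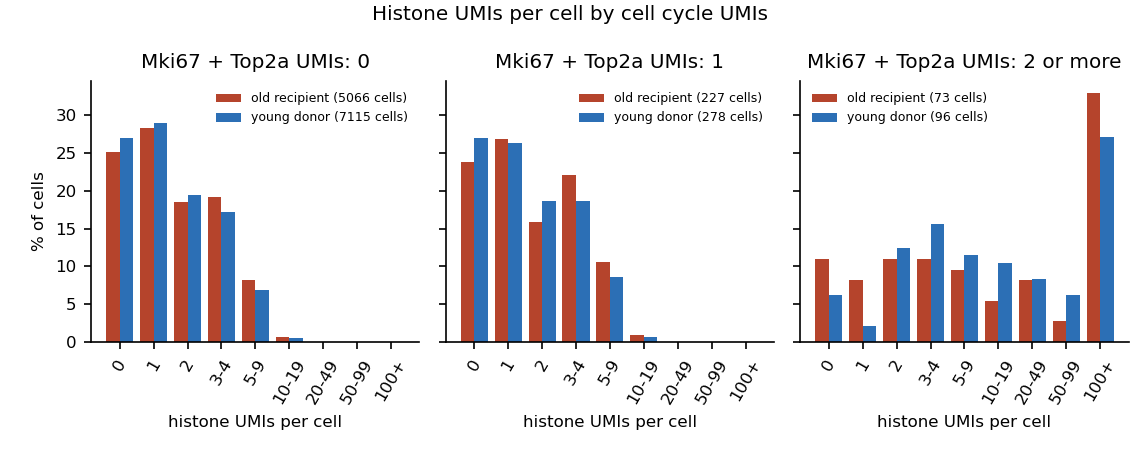
Percent of cells by histone UMIs per cell, in cells with 0, 1 or at least 2 UMIs of Mki67 and Top2a, for the old recipient (red) and young donor (blue) library. Only the last panel has cells with 50 or more histone UMIs (26 recipient and 32 donor cells), and it also holds cells with none.

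Noncycling cells with 10 or more histone UMIs numbered 35 among recipient cells (0.691%, 95% exact binomial interval 0.482 to 0.960) and 39 among donor cells (0.548%, 0.390 to 0.749), and the highest had 20 and 24. They held 4.53% and 3.98% of the histone UMIs of noncycling cells. A UMI of any of 14 cell cycle genes was present in 25.7% and 25.6% of them and in 10.95% and 12.6% of the other noncycling cells. Without every cell that had such a UMI (560 and 901 cells), the noncycling level was 261 and 219 CPM, close to the level with them.

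The annotated 3' end went with these shares. In 23 members the annotated transcript runs over 100 bases past the stem-loop, and 12 of these end with a poly(A) signal (AATAAA or ATTAAA in the last 50 bases). The 19 of them with at least 50 UMIs had a median of 14.9% of UMIs in cycling cells, from 2.70% (Hist3h2a) to 64.0% (Hist1h2ae). In 22 members the transcript ends within 100 bases of the loop, 1 of them with a signal, and the 16 with 50 UMIs had a median of 50.7%, from 8.97% (Hist2h2aa2) to 96.1% (Hist1h3b). The ranges overlapped, and Hist1h2ae, with 151 bases and a signal, lay among the most cycling-restricted members. Of the short-end members, Hist2h2aa1 (35 bases, no signal) had 11.4% of its UMIs in cycling cells and 14.3 and 10.7 CPM in noncycling cells. Hist1h2ap (3 bases, no signal) had 75.5% in cycling cells, yet 44.0 and 31.3 CPM in noncycling cells. The 15 measured members whose annotated transcript lacks the loop, most of them with no annotated 3' UTR, had a median of 40.6%. Over all 23 members with the long end, median noncycling levels were 4.19 and 4.45 CPM. Over all 22 with the short end they were 0.54 and 0.40 CPM. These medians include members with under 50 UMIs, which lie low, so they are not those of the 19 and 16 above. Over all 23 and 22 members as well, the median share of 90-base windows shared with other genes was 17.4% and 52.2%. Its part in the difference was not tested. Members are not independent, since copies share reads, so no test was made.

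**Figure D3:**
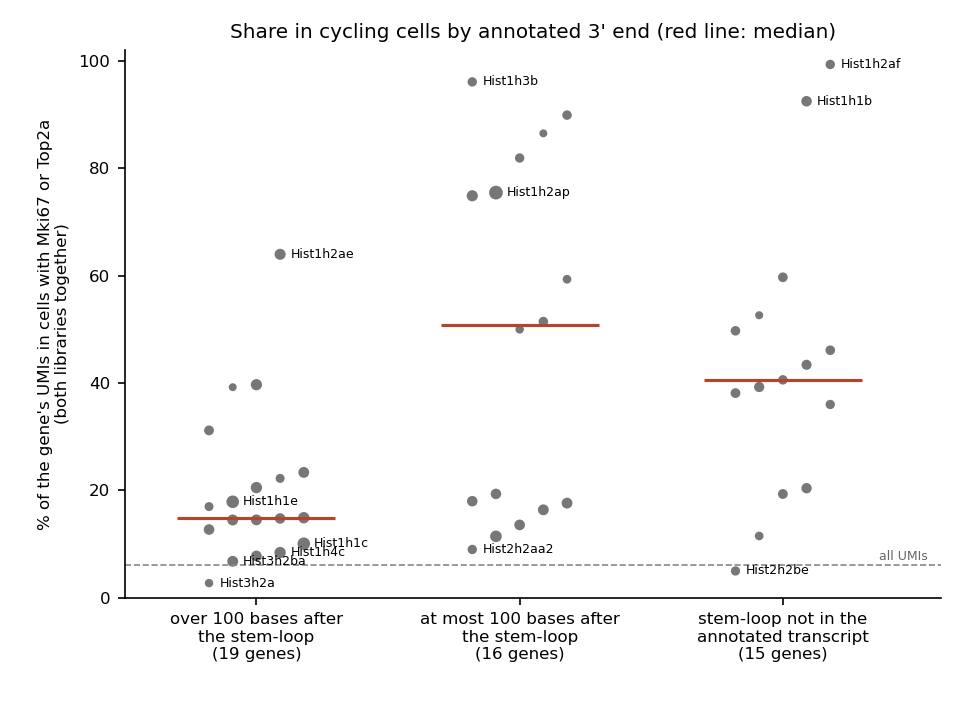
Percent of each member's UMIs found in cells with Mki67 or Top2a, over both libraries, by what the annotated transcript holds after the stem-loop. Each point is 1 of 50 members with at least 50 UMIs, its size grows with the log of its UMIs, red lines are medians (14.9, 50.7 and 40.6%), and the dashed line is the share of all UMIs.

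Noncycling cells were then divided by single marker genes. The Gzmk gate held cells with at least 2 UMIs of Gzmk, a granzyme gene of memory CD8 cells (890 recipient and 944 donor cells). The Ly6c2 gate held cells with at least 2 UMIs of Ly6c2, a surface antigen gene of memory CD8 cells (2233 and 5063 cells). The naive-type gate (1456 and 806 cells) held cells with no Gzmk or Cd44, at most 1 UMI each of Ccl5 and Ly6c2, and at least 3 UMIs together over a short set of naive markers that includes Ccr7 and Lef1. The first 2 gates shared 104 recipient and 92 donor cells. Naive markers summed to 3200 and 3321 CPM in the naive-type gate and 1867 and 1953 in the Gzmk gate, and memory markers to 1547 and 1535 against 7756 and 7722. The highest gene of the naive list went against its sum, at 812 and 779 CPM in the naive-type gate and 1034 and 1035 in the Gzmk gate. In the Ly6c2 gate naive markers summed to 2808 and 2622 CPM and memory markers to 3702 and 3978, so this gate lay between the others by both lists.

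Histone RNA was present in every gate. It summed to 347 CPM (330 to 365) and 355 CPM (337 to 372) in recipient and donor Gzmk cells, 241 (234 to 248) and 201 (197 to 205) in Ly6c2 cells, and 260 (250 to 269) and 255 (243 to 268) in naive-type cells. H1 and H2A genes gave the most in each gate. H1 genes summed to 108 and 112 CPM in Gzmk cells, 71.3 and 65.1 in Ly6c2 cells and 66.7 and 63.8 in naive-type cells. H2A genes summed to 114 and 110, 76.1 and 55.3, and 82.5 and 81.6 CPM in the same order, and H4 genes to 64.4 and 62.9, 50.6 and 43.1, and 57.2 and 57.1 CPM. H3 genes gave from 18.9 to 27.0 CPM and H2B genes from 18.9 to 43.2 CPM over the gates and libraries.

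**Figure D4:**
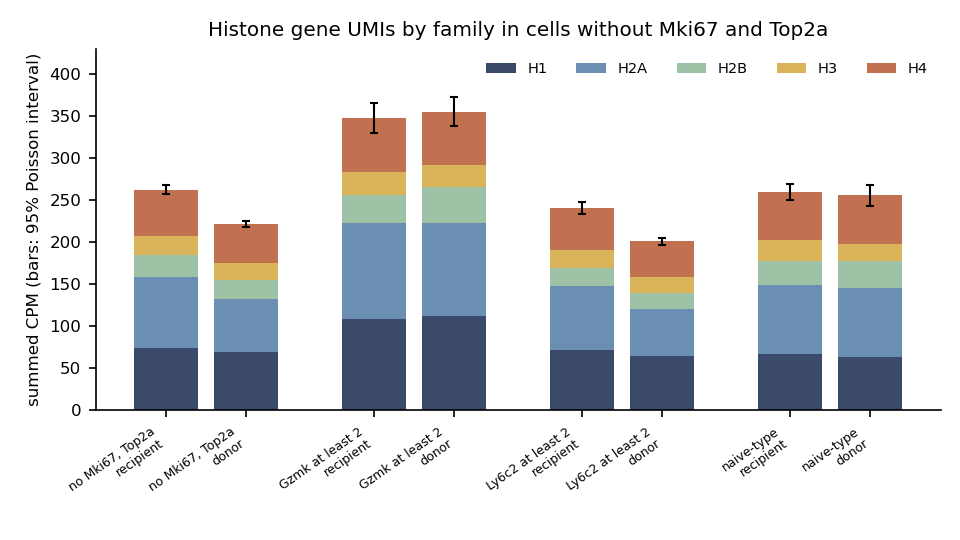
Summed CPM of histone genes in noncycling cells and its 3 gates, stacked by family, in the old recipient and young donor library, with the 95% Poisson interval of the sum. The Gzmk gate is highest at 347 and 355 CPM, and the Ly6c2 gate of the donor is lowest at 201 CPM.

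With each cell thinned to 2500 UMIs, 50.6% (47.2 to 54.0) of recipient and 50.4% (47.1 to 53.7) of donor Gzmk cells had a histone UMI. The shares were 42.5% (40.4 to 44.6) and 37.2% (35.8 to 38.5) in Ly6c2 cells, and 45.6% (43.0 to 48.2) and 43.2% (39.8 to 46.7) in naive-type cells. All noncycling cells had 44.9% and 40.7%, and cycling cells 54.1% and 50.8%. Thinning left out 30 and 33 Gzmk cells, 29 and 20 Ly6c2 cells, and 5 and 1 naive-type cells as too shallow. Unthinned, the Gzmk gate was lowest (68.2 and 66.0%) and the naive-type gate had 77.1 and 77.8%, with median depths of 4494 and 4446 against 7240 and 7620 UMIs. No cell type in these sorted libraries is known to lack histone RNA, so a background share from free RNA was not measured.

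The members most restricted to cycling cells were rare in every gate. This was largely set in advance, because all 3 gates are parts of the noncycling cells. At 2500 UMIs Hist1h1b was seen in 4 of 860 recipient and 6 of 911 donor Gzmk cells, in 1 of 2204 and 2 of 5043 Ly6c2 cells, and in 0 of 1451 and 0 of 805 naive-type cells (upper limits 0.254% and 0.457%). Its level was 1.59 and 2.65 CPM in Gzmk cells and at most 0.18 CPM in the others. Hist1h2af had 0 UMIs in the Gzmk and naive-type gates of both libraries, where all noncycling cells together held 0 recipient and 1 donor UMI of it. The summed level of the 14 cell cycle genes moved with the gates as well, at 59.2 and 64.2 CPM in Gzmk cells, 16.5 and 18.5 in Ly6c2 cells and 8.28 and 9.79 in naive-type cells. Without the cells that had any of these genes, 23.7% and 19.8% of the Gzmk gate, Gzmk cells had 357 and 359 CPM of histone RNA and naive-type cells 259 and 261 CPM. These levels do not take out the shift of all genes between the gates that is given next.

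Histone RNA as a share of all RNA was somewhat higher in Gzmk than in naive-type cells. The sum was higher by log2 0.42 (0.33 to 0.51) in recipient and 0.47 (0.37 to 0.57) in donor cells, but the median of all genes was higher too, by 0.32 in both. Under TMM scaling, which takes that shift out, the sum differed by 0.08 (-0.01 to 0.17) and 0.16 (0.06 to 0.26). The members' median ratio was 0.06 and 0.01, below that of all genes. Of 22 measured members in the recipient 6 were higher, where 27.6% of all genes were, and 4 lower, where 8.28% were. In the donor 5 of 18 were higher, where 27.3% of all genes were, and 1 was lower, where 7.19% were. Under TMM scaling 2 of 22 were higher and 5 lower in the recipient, where 12.3% and 15.5% of all genes were. In the donor 3 of 18 were then higher and 3 lower, where 12.6% and 13.5% of all genes were. The higher counts were near the shares of all genes under plain scaling in both libraries.

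Hist1h1d, a linker gene, had 9.98 and 14.3 CPM in Gzmk cells and 3.72 and 6.03 CPM in naive-type cells, log2 ratios of 1.42 and 1.249 (1.08 and 0.93 under TMM scaling). The H4 gene Hist1h4i had 9.30 and 11.03 CPM against 4.56 and 4.40 CPM, log2 1.03 and 1.33 (0.69 and 1.01 under TMM scaling). Both were thus past 1.5-fold in both libraries and under both scalings. The linker gene Hist1h1e had 52.4 and 56.3 CPM against 31.6 and 25.9, log2 0.73 and 1.12, and 0.39 and 0.80 under TMM scaling. Hist1h2ap had 72.6 and 66.6 CPM against 40.5 and 40.1, log2 0.84 and 0.73, and Hist3h2ba 14.98 and 14.6 CPM against 9.31 and 9.30, log2 0.69 and 0.65. Under TMM scaling those of Hist1h2ap were 0.50 and 0.42 and those of Hist3h2ba 0.34 and 0.33, below 1.5-fold. Hist1h1c, at 42.9 and 37.1 CPM against 29.5 and 30.3, was within 1.5-fold in both libraries, and in the donor its sign turned with the scaling (log2 0.29, and -0.03 under TMM scaling). Hist1h2be, an H2B gene, was among the 4 lower in the recipient, with 1.82 CPM in recipient Gzmk cells against 4.84 in naive-type cells, but in the donor it was at 5.96 against 5.38 CPM, a log2 ratio of 0.15 that was -0.17 under TMM scaling. Median depth was lower in Gzmk cells, at 4494 and 4446 UMIs against 7240 and 7620, and its part in these ratios was not tested. Myeloid markers summed to 29.5 and 40.8 CPM in Gzmk and 4.28 and 4.89 CPM in naive-type cells, most of it Cd68 in the former. NK cell markers summed to 362 and 342 against 11.8 and 12.7 CPM, with Ncr1 at 0 in both gates. Of this sum in Gzmk cells, 274 and 256 CPM were Eomes, which is also in the memory list. B cell markers summed to 66.9 and 61.3 against 228 and 215 CPM with Pax5 at 0. The part of these marker lists in the histone ratios was not tested.

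Ly6c2 cells had somewhat less histone RNA than naive-type cells, by log2 -0.11 (-0.18 to -0.04) in recipient and -0.34 (-0.42 to -0.27) in donor cells, beside all-gene medians of 0.03 and 0.05. Of 28 measured members in the recipient 4 were lower, where 3.02% of all genes were, and 0 higher, where 7.56% were. In the donor 10 of 31 were lower, where 4.84% of all genes were, and 0 higher, where 10.2% were. Hist3h2ba was lower in both libraries, at 4.36 against 9.31 CPM (log2 -1.10, -1.54 to -0.66) and 3.67 against 9.30 CPM (-1.34, -1.78 to -0.88). Hist1h2bc, an H2B gene, was at 2.67 against 4.19 CPM (-0.65) and 2.69 against 5.38 CPM (-1.002). Hist2h2bb, of H2B as well, was at 1.52 against 3.16 CPM (-1.05) and 1.93 against 3.10 CPM (-0.68). Hist1h1c and Hist1h1e differed little, at 33.3 and 33.1 CPM against 29.5 and 30.3, and at 32.0 and 26.4 CPM against 31.6 and 25.9. In the donor Hist1h2ap was at 25.9 against 40.1 CPM (-0.63, -0.83 to -0.43), while in the recipient it was at 39.0 against 40.5 CPM (-0.05, -0.23 to 0.12).

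Between the libraries, noncycling recipient cells had more histone RNA than donor cells, 262 against 221 CPM, a log2 ratio of 0.24 (0.21 to 0.28), beside an all-gene median of 0.03. Of 40 measured members 3 were at least 1.5-fold higher, where 3.98% of all genes were, and 0 lower, where 2.87% were, so this was a small shift spread over members. The 3 were low genes, Hist1h2ao (2.80 against 1.74 CPM), Hist1h2an (1.17 against 0.74) and Hist1h3i (1.97 against 1.20). The members' median was 0.20, and 13 intervals lay above 0 and 0 below. Hist1h2ap was at 44.0 against 31.3 CPM (log2 0.49, 0.39 to 0.59), Hist1h1e at 35.02 against 28.9 (0.28, 0.17 to 0.38), and Hist1h1c at 32.4 against 33.3 (-0.04, -0.14 to 0.07). The gates made up different parts of the libraries: Ly6c2 cells were 41.6% of recipient and 67.6% of donor cells, and naive-type cells 27.1% and 10.8%.

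Gate by gate, the library contrast was seen in Ly6c2 cells. There the sum was 241 against 201 CPM, log2 0.26 (0.21 to 0.31), and 7 of 37 members were higher, where 3.16% of all genes were, and 0 lower, where 2.36% were. The 7 were Hist1h1a, Hist1h2ae, Hist1h2ao, Hist1h2ap, Hist1h2bj, Hist1h2bn and Hist1h3i, and Hist1h2ap had 39.0 against 25.9 CPM (0.59, 0.46 to 0.73). That count moved to 4 without cells that had any of 14 cell cycle genes, to 2 with at least 4 UMIs of Ly6c2, and to 0 at 2-fold. The shares of all genes were not counted under these settings. In Gzmk cells the sum was 347 against 355 CPM (-0.03, -0.13 to 0.07), with 0 of 15 members higher, where 2.22% of all genes were, and 1 lower (Hist2h2ac), where 1.82% were. In naive-type cells it was 260 against 255 CPM (0.02, -0.07 to 0.11), with 0 of 23 higher, where 2.39% of all genes were, and 3 lower (Hist1h1d, Hist1h2ac and Hist4h4), where 1.98% were. Hist1h2ap had 72.6 and 66.6 CPM in Gzmk cells and 40.5 and 40.1 CPM in naive-type cells of the recipient and donor. Whether the contrast differs between the gates was not tested.

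The comparison of cycling cells between the libraries was added after values were seen. Recipient cycling cells had 3659 and donor ones 2153 CPM, log2 0.77 (0.72 to 0.81), or 0.54 (0.47 to 0.61) without Hist1h2ap. Of 37 members 18 were higher, where 5.16% of all genes were, and 2 lower (Hist1h3b and Hist1h4k), where 2.53% were. Hist1h1b was at 94.4 against 46.5 CPM (log2 1.02), Hist2h2bb at 36.2 against 10.8 (1.75), Hist1h4d at 49.4 against 19.9 (1.31), and Hist1h3b at 17.5 against 30.7 (-0.81). Mki67 was at 117 against 122 CPM and Top2a at 231 against 254 CPM in the same cells. Since 24 and 26 cells held most of these UMIs, the counting intervals leave out the spread between cells, and the interval of the sum is too narrow as a measure of the groups.

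**Figure D5:**
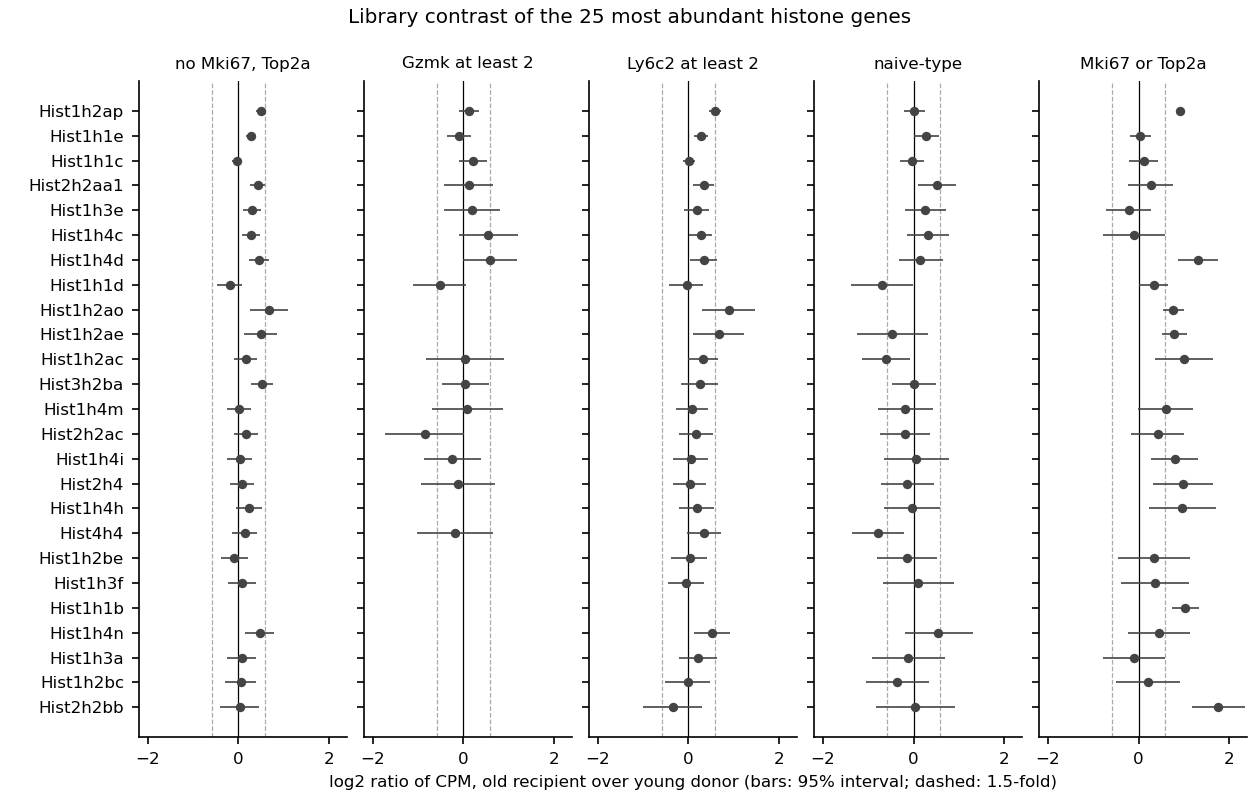
Log2 ratio of CPM, old recipient over young donor, of the 25 members with the most UMIs in noncycling cells, the 3 gates and cycling cells, with 95% intervals. Members with under 50 UMIs in a comparison have no point, and dashed lines mark 1.5-fold. Hist1h2ap lies right of 0 in noncycling, Ly6c2 and cycling cells and near 0 in naive-type cells.

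Genes that act on histone messages and histone proteins were described from fixed lists. Of 22 measured genes for histone transcription and message processing, 7 were higher in cycling cells of each library and 0 lower. Among them were Slbp (172 against 59.1 CPM in the recipient, 150 against 56.0 in the donor), the kinase gene Cdk2 (log2 1.89 and 2.33) and the transcription factor gene E2f1 (2.48 and 2.49). Since the list holds cell cycle regulators such as Cdk2 and E2f1, its count is not one of message processing alone. Of 20 chaperone genes 11 were higher in the recipient and 10 in the donor, led by Asf1b, which hands H3 and H4 to new DNA, at 73.3 against 5.60 CPM and 77.7 against 5.19 CPM. Of 9 histone variant genes outside the clusters 5 were higher in each library, with Cenpa, the centromere H3, at 139 against 17.1 CPM and 165 against 13.1 CPM. All 26 cell cycle genes other than Mki67 and Top2a were higher in both. The shares of all genes given above for cycling cells apply to these counts.

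Several variants outside the clusters were much higher in Gzmk than in naive-type cells. H2afz, the H2A.Z gene, had 1196 and 1255 CPM in Gzmk cells against 291 and 279 CPM in naive-type cells, log2 2.04 and 2.17. H3f3b, an H3.3 gene, had 1809 and 1797 against 834 and 805 CPM, and H1f0, a linker variant of resting and differentiated cells, 20.2 and 17.9 against 2.33 and 4.24 CPM. Of 9 variants 6 were higher in recipient cells, where 27.6% of all genes were, and 5 in donor cells, where 27.3% were, with 0 lower and list medians of 0.69 and 0.73 beside the 0.32 of all genes. Slbp had 112 and 113 CPM against 47.4 and 46.8 CPM (log2 1.24 and 1.27), above the shift of all genes, while the clustered genes summed were at 0.42 and 0.47. Of the message factors 4 of 21 and 5 of 20 were higher, and of the chaperones 2 of 20 and 3 of 19, all below these shares of all genes, with Npm1 lower in both (log2 -0.88 and -0.80). In Ly6c2 cells Slbp was at 52.8 and 51.1 CPM, and H2afz at 530 and 565 CPM, log2 0.86 and 1.02 over naive-type cells. Between the libraries 0 of 22 message factors, 0 of 20 chaperones and 0 of 9 variants were 1.5-fold higher or lower in noncycling cells, with list medians of 0.00, 0.05 and 0.04.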

How the data were processed

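Splenic CD8 T cells were measured in 2 droplet 5' libraries, 1 per group. The authors deposited raw UMI counts per gene and barcode; the submitters' processing notes name Cell Ranger, Seurat and mm10, and the headers of the matrix files give software version 3.0.2. The annotation release and cell calling rules were not given in the sources used here. Cell Ranger counts by default only reads that map to 1 gene, so near-identical members can lose UMIs; the setting used was not stated. GENCODE M21 held 30934 of 31053 features (99.6%), and features with the same symbol were summed.

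Barcodes with under 500 genes or over 10% mitochondrial UMIs (555 recipient, 587 donor) were left out, as were 253 (4.50%) and 512 (6.40%) scored doublets (2 simulated doublets per cell, 1500 genes, 0.8% per 1000 barcodes). Of 6174 and 8588 barcodes, 86.9% and 87.2% were kept. UMIs of a gate were added up and divided by the gate's own UMI total to give CPM; 1 UMI was 0.0259 and 0.0169 CPM over all kept cells. Intervals are exact (Poisson for levels, binomial conditional on the summed count for ratios, Clopper-Pearson binomial for shares) at 95% and cover counting error only. No difference was tested; a member counted as higher or lower differed 1.5-fold with at least 50 UMIs. Shares used cells thinned to 2500 UMIs, and 3 counts were the limit where a count was 0. Named were the 25 members with the most UMIs, up to 4 genes per list with the largest ratios past 1.5-fold, and Mki67, Top2a, Slbp, H2afz, H3f3b and H1f0; other names were chosen after their values were seen. Members, gates and lists were chosen with earlier results of these data known. The procedure was tested on simulated Poisson counts, which leave out the spread between cells. Python 3.11.15, numpy 2.4.6, scipy 1.17.1, pandas 2.3.3, scikit-learn 1.9.0 and matplotlib 3.10.9 were used. Receptor sequences were not used here. Some marker genes used in gates and lists are not reported here.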

Additional observations from a re-analysis of the deposited data

Results flagged for a closer look

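The H2A gene Hist1h2ac had opposite library contrasts in 2 sets of cells. In cycling cells it was higher in the recipient, 21.5 against 10.8 CPM, a log2 ratio of 0.99 (0.36 to 1.64), and in naive-type cells lower, 6.24 against 9.46 CPM, a log2 ratio of -0.60 (-1.13 to -0.07). The difference between the 2 contrasts was not tested, since each set is 1 library per group, and the counts were 54 and 37 UMIs in cycling and 67 and 58 in naive-type cells.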

How the results depend on the processing

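The 19 other settings gave 801 values for 79 results, of which 689 stayed within the interval of the reported value (counts within 1.5 times) and 112 moved, and 0 called values turned their sign. Among members past 1.5-fold, Hist2h2be in recipient cycling cells turned its sign in at least 1 setting. Every value below is the count of members past the fold, the log2 ratio of the sum, the summed CPM or the share of cells, as named. No paired analysis was possible because each group had 1 library, and for the same reason no replicate could be left out. The cause of each move was not tested. Leaving out the barcodes that both libraries shared and summing without Hist1h2ap were chosen after seeing the data, and the former moved 0 of 79 results.

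At 2-fold, members past the fold in Gzmk against naive-type cells were 3 in the donor and 3 in the recipient, and in Ly6c2 against naive-type cells 5 and 2. Between the libraries they were then 0 in Gzmk, Ly6c2, naive-type and noncycling cells and 7 in cycling cells. With at least 20 UMIs they were 16 in recipient Gzmk against naive-type cells, 18 in donor Ly6c2 against naive-type cells, and between the libraries 5 in Gzmk, 8 in naive-type and 6 in noncycling cells. With at least 200 UMIs they were 21 and 17 in donor and recipient cycling against noncycling cells, 2 and 2 in Gzmk against naive-type cells, and 5 and 0 in Ly6c2 against naive-type cells. Between the libraries that minimum left 0 in Gzmk, 1 in Ly6c2, 4 in cycling, 0 in naive-type and 0 in noncycling cells. The library count in Gzmk cells was 0 with at least 4 UMIs of Gzmk, 0 without cells in both gates and 0 with no doublets removed. That in Ly6c2 cells was 2 with at least 4 UMIs of Ly6c2, 4 with no doublets removed and 4 in cells without any of 14 cell cycle genes. The shares of all genes past the fold were not counted under these settings. These counts therefore show only how the numbers move with the cuts, not how members compare with other genes.

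TMM scaling gave log2 ratios of 3.14 and 3.59 for donor and recipient cycling against noncycling cells, 0.157 and 0.0771 for Gzmk against naive-type cells and 0.68 for cycling cells between the libraries. Totals without large gene families gave 3.13 and 3.603, 0.124 and 0.0452, and 0.69 for the same. With no doublets removed, the cycling ratios were 3.04 and 3.63 and the library ratio in cycling cells 0.82, and levels were 1855 CPM in donor and 3281 CPM in recipient cycling cells, 336 in donor Gzmk, 207 in donor Ly6c2 and 226 in donor noncycling cells. With 14 genes setting the gate, the cycling ratios were 1.93 and 2.59, the library ratio in cycling cells 0.91, the cycling levels 835 and 1569 CPM, and the share of donor cycling cells with a histone UMI 43.9%. At most 5% mitochondrial UMIs gave 0.71 between the libraries in cycling cells, 3561 CPM in recipient cycling cells and a share of 42.8% in recipient naive-type cells. Without Hist1h2ap the ratios were 2.23 and 2.57 for donor and recipient cycling cells and 0.33 for recipient Gzmk against naive-type cells. Between the libraries they were then 0.20 in Ly6c2, 0.54 in cycling and 0.20 in noncycling cells. Donor and recipient levels without Hist1h2ap were 892 and 1296 CPM in cycling, 288 and 275 in Gzmk, 175 and 202 in Ly6c2, 215 and 219 in naive-type, and 190.1 and 218 in noncycling cells.

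Shares of cells with a histone UMI followed the depth. Unthinned they were 78.3% and 79.3% in donor and recipient cycling cells, 66.0% and 68.2% in Gzmk, 74.2% and 77.3% in Ly6c2, 77.8% and 77.1% in naive-type, and 73.0% and 74.9% in noncycling cells. Thinned to 1500 UMIs they were 36.5% and 43.0%, 35.5% and 33.2%, 26.9% and 29.7%, 30.9% and 29.9%, and 28.0% and 31.9% in the same order. Thinned to 3500 UMIs they were 57.8% and 60.9%, 60.3% and 59.8%, 46.6% and 51.6%, 52.7% and 56.9%, and 49.5% and 55.2%. In the Gzmk gate 15 members reached 50 UMIs over both libraries, so depth limits what can be said there of single members.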
